A study of Mus musculus with 2 samples.

Results

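The cytoplasmic ribosomal protein genes were taken as mouse genes whose symbol has the form used for small-subunit proteins (Rps and a number, or Rpsa), large-subunit proteins (Rpl and a number) or the stalk proteins (Rplp and a number), and which have at least 1 transcript annotated as protein coding. The choice used names and annotation, not measured values. It gave 84 genes of the 55536 mouse genes in the gene tables, 32 of the small subunit, 49 of the large subunit and 3 of the stalk. Another 6 genes matched by name but had no protein-coding transcript (Rpl32l, Rpl6l, Rps12l1, Rps3a2, Rps3a3 and Rps4l) and were left out. Fau and Rack1 encode parts of the ribosome under other names and were described only beside the members.

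Polyadenylated RNA was sequenced from macrophages that had been grown from the bone marrow of C57BL/6J mice and exposed for 120 minutes to 100 ng/ml of lipid A, the membrane anchor of bacterial lipopolysaccharide. The labels disagree on the stimulus, since the description names lipid A while the treatment and source fields name lipoprotein A, a protein. All samples form 1 group of 2 libraries, replicate 1 and replicate 2, with sex and age not collected. A single donor record is attached to both, and nothing states that they came from different animals or cultures, so their spread may be technical. No unstimulated libraries were analysed here, so values are levels in stimulated cells and not a response, and with 1 group no test between conditions was possible. In bulk RNA, fewer cells of a type and less RNA per cell cannot be told apart.

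A ribosome joins a small subunit, which reads the mRNA, to a large subunit, which forms the peptide bond. Each subunit is a scaffold of ribosomal RNA carrying ribosomal proteins, most of them present as a single copy per ribosome and all needed in like amounts. In mammals their mRNAs start with a terminal oligopyrimidine (TOP) tract, a C followed by a run of C or T bases, through which mTOR and Larp1 control their translation. Because these mRNAs are short, abundant and often reverse transcribed in the germ line, mammalian genomes carry many processed pseudogenes of them, intronless copies inserted elsewhere.

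The gene tables held 33272581 and 50266403 estimated counts over mouse genes in replicates 1 and 2 by RSEM, and 37025251 and 57832556 by kallisto, the program used for the other quantification of the same libraries. The macrophage markers Csf1r, Adgre1, Cd68, Lyz2, Fcgr1, Mertk and Cd14 were all at 34.85 TPM or more in both libraries, TPM being the length-corrected share of transcripts scaled to a fixed total. The granulocyte markers differed between the libraries, with a summed level of 514.7 TPM in replicate 1 and 66.9 TPM in replicate 2. The marker lists of other cell types were low in both libraries, with summed levels of 0.61 and 0 TPM for 4 T cell genes, 2.53 and 1.48 TPM for 4 B cell genes, 0.51 and 0.14 TPM for 5 erythroid genes and 0.84 and 0.53 TPM for 4 stromal genes. Genes annotated as rRNA held 6.82% of RSEM TPM in replicate 1 and 10.5% in replicate 2. The coefficient of variation between the libraries was 0.215 over 12178 genes, as the square root of edgeR's common dispersion. A value given as a mean ± SD is over the 2 libraries.

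The annotated start regions of the most abundant members were searched for a run like that of the TOP tract. The windows below run from 40 bases before to 20 bases from the start base on, from RefSeq on build GRCm38.p6. They belong to the 5 members among the 8 highest by mean TPM that are in the promoter table. Capitals mark each C followed by at least 4 bases C or T that begins within 10 bases of the annotated start.
Rps27, chr3:90213629-90213688, minus strand: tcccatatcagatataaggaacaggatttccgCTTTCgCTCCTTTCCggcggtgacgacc
Rps24, chr14:24490638-24490697, plus strand: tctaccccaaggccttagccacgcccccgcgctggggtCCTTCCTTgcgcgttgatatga
Rpl10, chrX:74270776-74270835, plus strand: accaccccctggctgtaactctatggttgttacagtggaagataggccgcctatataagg
Rpl13a, chr7:45128726-45128785, minus strand: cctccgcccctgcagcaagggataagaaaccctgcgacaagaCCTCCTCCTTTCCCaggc
Rpl41, chr10:128549149-128549208, minus strand: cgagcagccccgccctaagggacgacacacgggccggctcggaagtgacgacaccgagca
Rps27, Rps24 and Rpl13a held such a run near the start, but only in Rps27 did 1 begin at the start base itself. The Rpl10 and Rpl41 windows held none. Rps24 has a further annotated start in the table, whose window also held none. Promoter windows of 300 bases, 250 before and 50 from the start base on, were in the table for 64 of the 84 members. Rps29 and Rplp1, also among the 8 most abundant, were not in it.

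A C at the annotated start base followed by at least 4 bases C or T was found in 13 of the 64 members (20.3%), against 3.01% of the 27025 genes in the table and 2.13% of 893 other genes at 100 TPM or more. Allowing the run to begin up to 10 bases from the start raised this to 39 members (60.9%), against 34.4% of all genes. The ETS motif CCGGAAG, read on both strands, was in 26 members (40.6%) and in 9.93% of all genes, and in 18.4% of the other genes at 100 TPM or more. With both strands read, the YY1 core AAGATGGC was in 6 members (9.38%), 3.19% of all genes and 4.82% of the other genes at 100 TPM or more. Read in the same way, TATAAA was in 7 members (10.9%), 15.7% of all genes and 13.1% of those other genes. The first of these motifs ends in the letters AAG with which the YY1 core begins, so both can share bases. A match is a description of the window only. Among leading transcripts, those with the highest mean RSEM TPM of their gene, 11 of 81 members (13.6%) started with C and at least 4 pyrimidines, against 2.29% of 10750 genes at 1 TPM or more. These starts are those of the annotation, and the start sites used in these cells were not measured.

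Nearly all the members were abundant. By RSEM, 81 of 84 reached 1 TPM in both libraries and 79 reached 100 TPM in both. Together the members held 6.40% of all TPM in replicate 1 and 7.29% in replicate 2 by RSEM, and 4.53% and 4.60% by kallisto. They made up 16 of the 100 most abundant mouse genes and 41 of the 200 most abundant. Their share of counts, which does not divide by length, was 1.69% and 1.87%. The median member at 1 TPM or more stood at 644 TPM in replicate 1 and 731 TPM in replicate 2, with quartiles of 406 and 1047 TPM and of 499 and 1150 TPM.

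The members were not at equal levels. They include paralogs of other members, and genes such as Rpl5 whose counts went largely to a copy. Their spread is therefore not that of subunits needed in like amounts. Over the 81 expressed members the coefficient of variation of TPM was 67.4% in replicate 1 and 69.2% in replicate 2. The order was almost the same in both libraries, with a Spearman rho of 0.97 over the 81 members, which share library and annotation. The small-subunit genes had a median of 884 TPM, the 46 expressed large-subunit genes 545 TPM and the stalk genes 842 TPM, taking each gene's mean of the libraries. The ratio of upper to lower quartile was 2.00 for the small subunit and 2.81 for the large subunit. TPM was lower for members of larger effective length, the number of start positions a fragment can take. Over the 81 members Pearson's r was -0.56 on log2 values and Spearman's rho was -0.56. TPM is divided by this length, so the points are not independent of it.

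The highest members by RSEM were Rps27, a zinc-binding small-subunit protein, at 2419.7 and 2932 TPM in replicates 1 and 2, and Rps29, another short zinc-binding protein, at 2565 and 2599 TPM. Rplp1, one of the acidic stalk proteins that recruit elongation factors, stood at 2238 and 2778 TPM, and Rps24 at 1997 and 2622 TPM. Rps27, Rplp1 and Rps24 kept this order in both libraries, whereas Rps29 was the highest of these 4 in replicate 1 and the lowest in replicate 2. The ranges of the 4 genes overlap, and 2 libraries do not resolve their order. Rpl10, which is placed late during large-subunit maturation, stood at 2071 and 2245 TPM. Rpl13a stood at 1601 and 1712 TPM and Rpl41, the shortest ribosomal protein, at 1413 and 1637 TPM. Rps27 and Rps29 have RSEM effective lengths of 88.7 and 124 bases in replicate 1, and 6 members in all were under 150 bases.

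The lowest of the expressed members by RSEM was Rpl7l1, a paralog of Rpl7, at 42.3 and 44.0 TPM. By kallisto it stood at 38.8 and 37.0 TPM, and Rpl12, Rpl5 and Rps12 were lower. Rpl5, which with Rpl11 and 5S RNA forms the particle that binds Mdm2, was listed at 45.04 and 83.8 TPM. By kallisto Rpl5 was at 6.85 and 4.86 TPM. Rpl11 stood at 481 and 554 TPM by RSEM. The paralogs Rpl22l1 and Rps27l stood at 123 and 105 TPM and at 196 and 181 TPM. The other 4 of the 8 lowest lay close together. Rpl10a had 251 and 287 TPM, Rpl21 272 and 268 TPM, Rpl27 249 and 298 TPM, and Rps20 248 and 307 TPM. Their ranges over the libraries overlap, so their order among themselves is not resolved.

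Of the marker genes of the class, Rplp0 lay near its middle, at rank 34 by mean TPM, and Rpsa lower, at rank 55. Rplp0, the stalk protein that anchors Rplp1 and Rplp2 and a common reference gene, had 779 TPM in replicate 1 and 906 TPM in replicate 2 (842 ± 90.04 TPM). Rpsa, a small-subunit protein also known as the laminin receptor precursor, had 538 and 511 TPM (524 ± 19.4 TPM). The third stalk protein, Rplp2, had 640 TPM in replicate 1 and 497 TPM in replicate 2.

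**Figure D1:**
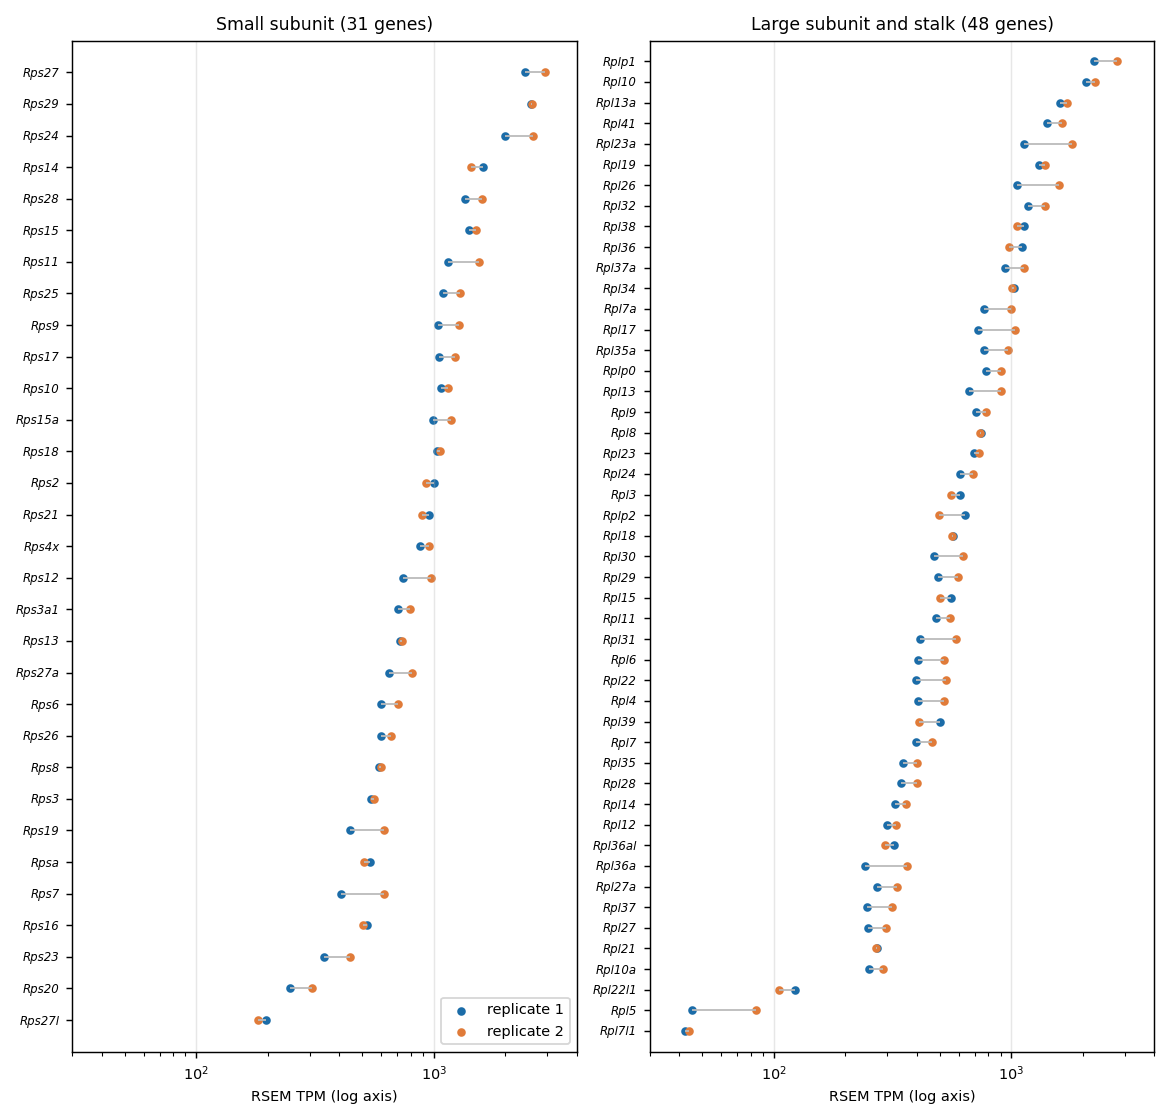
RSEM TPM on a log axis of 79 expressed members, small subunit at left and large subunit with stalk at right, with replicate 1 and replicate 2 as points joined by a line. Most genes lie between 406 and 1150 TPM, Rpl7l1 and Rpl5 lie lowest, and the line of Rpl5 is the longest.

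The other 3 members, all paralogs of an abundant one, were under 1 TPM by RSEM. Rpl10l, an intronless paralog of Rpl10 known for its role in mouse spermatogenesis, had 0 counts in both libraries by both programs. A count of 0 allows up to 0.0902 and 0.0597 CPM in replicates 1 and 2, for counting error only. Rpl3l, the paralog of Rpl3 known from heart and skeletal muscle, had 0 and 2 counts. Rpl39l, known from the testis in mouse, had 11 and 10 counts, or 0.93 and 0.58 TPM.

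Other paralogs shared the expression of their pair. Rpl36al, an autosomal paralog of the X-linked Rpl36a, held 57.0% of the pair's TPM in replicate 1 and 44.6% in replicate 2 (50.8% ± 8.78). Rpl36al stood at 321 and 294 TPM and Rpl36a at 242 and 365 TPM, so which of them was higher differed between the libraries. These shares leave out Rpl36a-ps2, a pseudogene with the same coding bases as Rpl36a, which RSEM gave 331 and 413 TPM. Rpl22l1 held 23.7% and 16.5% of its pair with Rpl22 (20.1% ± 5.07). Rpl7l1 held 9.64% and 8.70% of its pair with Rpl7, and Rps27l, a p53 target in mammals, 7.50% and 5.82% of its pair with Rps27. As shares of counts, which do not divide by length, the means were 18.3% for Rpl7l1 and 15.1% for Rps27l. Rpl39l held 0.185% and 0.142% of its pair with Rpl39, with a mean of 0.269% by kallisto and 0.259% of counts. Rps4l, not a member, had 46 and 49 counts and held 0.352% and 0.235% of its pair with the X-linked Rps4x, which stood at 875 and 951 TPM.

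The pairs differ in how alike their coding sequences are, which decides how many reads could fit both. Rpl36a and Rpl36al were identical at 87.7% of 318 aligned coding bases, Rpl39 and Rpl39l at 85.0% of 153, Rpl10 and Rpl10l at 84.6% of 603, Rps27 and Rps27l at 76.2% of 252, Rpl3 and Rpl3l at 75.04% of 705, Rpl22 and Rpl22l1 at 70.8% of 363 and Rpl7 and Rpl7l1 at 59.8% of 727. The stretch of coding bases 91 to 180 shows this for Rpl36a beside its paralog and beside Rpl36a-ps2, a processed pseudogene whose coding part is the same as that of Rpl36a. Capitals mark positions at which Rpl36al differs.
Rpl36a, chromosome X: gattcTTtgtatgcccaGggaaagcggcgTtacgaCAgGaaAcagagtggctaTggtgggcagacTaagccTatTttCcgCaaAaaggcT
Rpl36a-ps2, chromosome 3: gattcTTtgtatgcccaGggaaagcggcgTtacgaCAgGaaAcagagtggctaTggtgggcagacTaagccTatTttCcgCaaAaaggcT
Rpl36al, chromosome 12: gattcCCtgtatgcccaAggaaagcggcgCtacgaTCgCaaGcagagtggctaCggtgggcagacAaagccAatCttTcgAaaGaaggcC
In these 90 bases Rpl36al differs from Rpl36a at 16 positions, and Rpl36a-ps2 at 0. By RSEM, Rpl36a-ps2 was given 530 and 1014 counts in replicates 1 and 2, and Rpl36a 1140 and 2522 counts. Kallisto gave Rpl36a-ps2 498 and 1113 counts and Rpl36a 1183 and 2615 counts.

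The members were lower in replicate 1 than in replicate 2 as a group. The ratio was taken on counts scaled by edgeR's TMM factors, with a minimum mean count of 50, which all 81 expressed members passed. Their median log2 ratio of replicate 1 over replicate 2 was -0.29, against -0.01 over all 10443 genes. Of the 81 members 73 were lower in replicate 1, against 5351 of the 10443 genes. The medians were -0.24 for the small subunit, -0.31 for the large subunit and -0.33 for the stalk. Of the members, 8 were lower in replicate 1 by 1.5-fold or more, against 6.94% of all genes, and 0 were higher by as much, against 7.61% of all genes. On TPM + 1, 5 members were 1.5-fold or more apart. In either direction the counts gave 8 of 81 members, against 14.6% of all genes, so large differences were not more frequent among members than in the background. By kallisto 8 members were likewise lower, against 7.17% of all genes, 0 were higher, against 7.53%, and 8 differed in either direction, against 14.7%. With 1 library on each side these differences have no test.

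The furthest lower in replicate 1 was Rpl5, with a log2 ratio of -0.87 by RSEM counts and -0.02 by kallisto. Rpl23a, which lies near the exit tunnel, had 1127 TPM in replicate 1 and 1808 TPM in replicate 2, a log2 ratio of -0.79. Rps7 had 408 and 619 TPM (-0.71), Rpl26, another protein near the exit tunnel, 1053 and 1587 TPM (-0.70), and Rpl36a 242 and 365 TPM (-0.70). Unlike that of Rpl5, these 4 ratios were -0.67 or further from 0 by kallisto as well. The furthest higher were Rpl39 at 0.19, with 501 and 408 TPM, Rpl22l1 at 0.11, Rps14 at 0.06, Rpl36 at 0.04 and Rpl36al at 0.02. All 5 of these lie inside the quartiles of all genes, -0.24 and 0.23. Just inside and just outside the 1.5-fold limit lay Rps20 at -0.62 and Rpl13 at -0.55.

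Related gene lists did not all differ in the same direction. Of all 10443 genes, 5351 were lower in replicate 1. Fau, which encodes a small-subunit protein fused to a ubiquitin-like one, stood at 793 and 932 TPM, a log2 ratio of -0.28. Rack1, a scaffold protein of the small subunit, stood at 497 and 477 TPM, a log2 ratio of -0.02. Of 10 elongation factors and other TOP mRNAs, 5 were lower in replicate 1 and the median was -0.01. Eef1a1, which brings aminoacyl-tRNA to the ribosome, stood at 4770.01 and 5805 TPM (-0.40) and Tpt1 at 2839.99 and 3828 TPM (-0.62). The translocation factor Eef2 stood at 739 and 725 TPM (-0.08) and Pabpc1, the poly(A) binding protein, at 512 and 675 TPM (-0.44). Of 26 ribosome biogenesis genes, 3 were lower in replicate 1 and the median was 0.35, the opposite direction to the members. The biogenesis gene furthest apart was Nop2, an rRNA methyltransferase, at 11.9 and 5.67 TPM (0.93), and nucleolin, Ncl, stood at 82.4 and 64.7 TPM (0.17). Among 8 regulators the median was -0.11, with Myc at 3.83 and 5.79 TPM (-0.61) and Larp1, which binds TOP mRNAs, at 77.6 and 97.5 TPM (-0.45). The granulocyte markers went the other way from the members, with a median of 3.59 over the 4 that passed, and the macrophage markers had a median of -0.14. The part of either in the difference between the libraries was not tested.

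**Figure D2:**
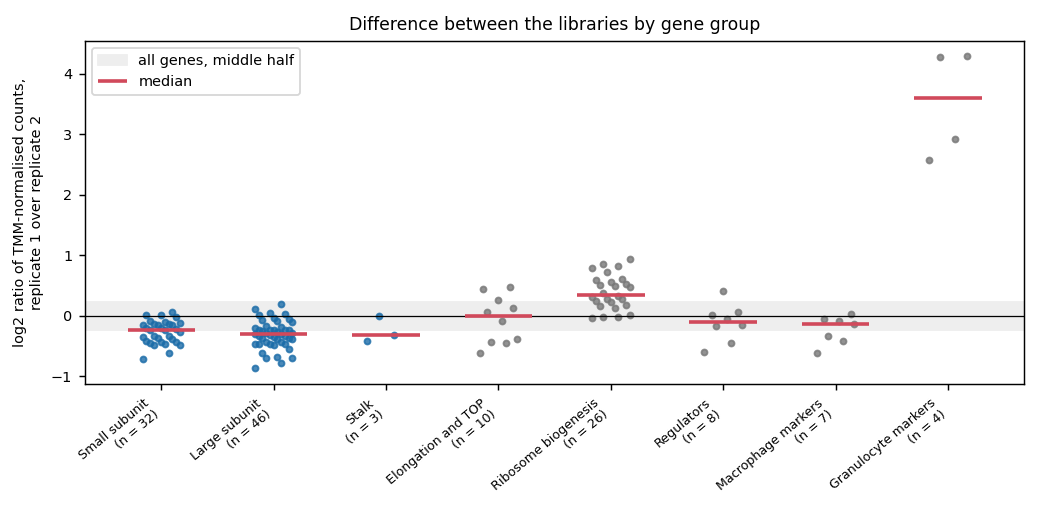
Log2 ratio of TMM-normalised RSEM counts, replicate 1 over replicate 2, each point 1 gene and the red bar the median of its group, with members in blue and other lists in grey. The black line and grey band are the median and middle quartiles of all genes. The members lie below the line with a median of -0.29, and the biogenesis genes above it with a median of 0.35.

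The programs gave different levels for the same libraries. With 1 TPM added, the members' median log2 ratio of RSEM over kallisto was 0.42 in replicate 1 and 0.60 in replicate 2, against 0.15 and 0.25 over 11191 genes. All 81 members were higher by RSEM in both libraries, which was also the direction of the median over all genes. The share of all genes higher by RSEM was not counted. Of them, 16 were higher by 1.5-fold or more in both, against 3.2% of all genes. Without replicate 1 the count was 41, and without replicate 2 it was 16, with no share of all genes counted for a single library. In both libraries 0 were lower by as much, against 5% of all genes; in either direction the background was 8.2%. On counts scaled to the library total, which do not divide by length, the members' median was 0.11 in both libraries, against 0.03 and 0.05 over all genes. There 6 members were higher in RSEM by 1.5-fold or more in both libraries, against 2.14% of all genes, and 0 were lower, against 6.09%, with 8.23% of all genes in either direction. Rpl41 lay just outside that limit, with -0.58 in replicate 1 and -0.67 in replicate 2. The programs share their reads, so no test was made.

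The difference was far larger for 3 members than for any other. Rps12 had 741 and 969 TPM by RSEM in replicates 1 and 2, against 14.7 and 14.8 TPM by kallisto. Rpl12, which forms the base of the stalk together with Rplp0, had 300.3 and 326 TPM by RSEM, against 5.92 and 4.73 TPM by kallisto. Rpl5 had 45.04 and 83.8 TPM by RSEM, against 6.85 and 4.86 TPM by kallisto. The next largest log2 ratios of TPM were 1.41 for Rps15a, 1.12 for Rpl10, 1.10 for Rpl10a, 0.94 for Rps27 and 0.94 for Rps16. Rpl21, at the other end, had 272 and 268 TPM by RSEM, against 270.2 and 267 TPM by kallisto.

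Each of the 3 members has at least 1 copy elsewhere in the genome that matches it without a difference over the aligned transcript. The gene models of build mm10 place Rps12 on chr10:23785183-23787275 and its copy Rps12-ps3, annotated as protein coding, on chr19:59322290-59322783. Rps12 has a further such copy, Rps12l1, on chromosome 7. They place Rpl12 on chr2:32961559-32965345 and its copy Gm10275, a transcribed processed pseudogene, on chr10:29698746-29699380. Rpl5 is on chromosome 5 and its copy Gm15500, of the same class, on chromosome 7. Coding bases 106 to 225 of Rpl12 are shown with those of Gm10275 and of Gm11425, a processed pseudogene on chromosome 11, because they show what a copy with and without differences looks like to a read. Capitals mark the positions at which Gm11425 differs.
Rpl12: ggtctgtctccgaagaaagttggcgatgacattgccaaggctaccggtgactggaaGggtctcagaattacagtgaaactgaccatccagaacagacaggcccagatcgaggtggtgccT
Gm10275: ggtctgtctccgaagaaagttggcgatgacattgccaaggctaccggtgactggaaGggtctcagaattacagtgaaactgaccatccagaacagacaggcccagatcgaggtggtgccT
Gm11425: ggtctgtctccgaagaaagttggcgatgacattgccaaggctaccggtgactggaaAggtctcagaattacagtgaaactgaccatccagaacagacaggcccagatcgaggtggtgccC
Counted from 1 at the first coding base of Rpl12, Gm11425 differs by G162A, T225C, T361C and T386C, while Gm10275 has 0 differences over all 495 coding bases.

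The programs divided the counts differently. Gm10275 was given 2281 and 4586 counts by RSEM in replicates 1 and 2, and 8810 and 15608 counts by kallisto, while Rpl12 was given 6365 and 10210 counts by RSEM and 151 and 194 counts by kallisto. Gm11425, with its 4 differences, was given 39.6 and 82.1 counts by RSEM and 54.1 and 98.8 counts by kallisto. Rps12-ps3 was given 86.9 and 102.2 counts by RSEM, against 5332 and 10558 by kallisto, and Rps12 5088 and 9725 by RSEM, against 159 and 243 by kallisto. Rps12l1 was given 264 and 425 counts by RSEM and 0 in both libraries by kallisto. Gm15500 was given 6732 and 12378 counts by RSEM, against 8033 and 16143 by kallisto, and Rpl5 1159 and 2892 by RSEM, against 205 and 289 by kallisto. For Rps12 and Rpl12, RSEM gave most counts to the gene and kallisto most to the copy, and for Rpl5 both gave most to the copy. Reads from stretches that are identical in a gene and its copy cannot be told apart by sequence. The cause of the difference between the programs was not tested.

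A near copy was any gene outside the members with a transcript at least 95% identical to a member's protein-coding transcript over at least 80% of its own length and 150 bases. There were 611 such copies of 79 members, of which 585 were annotated as processed pseudogenes, 15 as transcribed processed pseudogenes, 10 as protein coding and 1 as a lincRNA. Rpl21 had the most, 60, and the median member had 5, whereas Rpl8 and Rps27l were among those with none. Copies took 5.47% and 5.60% of the counts of members and copies together by RSEM in replicates 1 and 2, and 8.59% and 8.86% by kallisto. The 24 copies without a difference in the aligned bases, of 21 members, held 70.8% and 71.2% of the copies' counts by RSEM and 92.4% and 90.5% by kallisto. The aligned bases need not be the whole copy, as for Rpl10-ps3, with 740 of 768 bases aligned. The other 587 copies together held 1.60% and 1.61% of counts by RSEM and 0.650% and 0.842% by kallisto.

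Copies took 10% or more of the joint counts for 17 members by at least 1 program, and 13 of these have a copy without a difference in the aligned bases. Beside the 3 above, the share was 33.6% and 30.4% by RSEM and 55.3% and 58.2% by kallisto for Rpl27a, whose copy is Gm7536. It was 27.1% and 19.4% by RSEM and 52.8% and 46.0% by kallisto for Rpl10a. For Rps23 it was 34.5% and 32.4% by RSEM and 49.7% and 45.7% by kallisto. Kallisto gave copies the larger mean share for 11 of the 17 members. For Rpl10 the share was 5.86% and 4.91% by RSEM and 43.2% and 39.03% by kallisto, and Rpl10-ps3, annotated as protein coding on chromosome 9, was given 1247 and 1659 counts by RSEM and 9395 and 13969 by kallisto.

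Some members went the other way. For Rpl41, RSEM gave 3421 and 6179 counts to Gm10076, the lincRNA on chromosome 14, against 5.59 and 22.1 counts by kallisto, and Rpl41 itself was given 6395 and 10737 counts by RSEM and 10640.4 and 19708 by kallisto. Gm10076 differs from an Rpl41 transcript at 2 of 383 aligned bases, and at 0 of the 75 coding bases. The coding bases of Rpl41, shown because this whole reading frame is shared with the lincRNA, read as follows.
Rpl41, chromosome 10: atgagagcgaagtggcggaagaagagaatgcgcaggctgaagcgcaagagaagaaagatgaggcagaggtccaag
For Rps28 the copies' share was 11.0% and 9.87% by RSEM, against 0% and 0.0617% by kallisto. For Rpl27 it was 48.0% and 44.3% by RSEM, against 37.4% and 29.1% by kallisto.

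**Figure D3:**
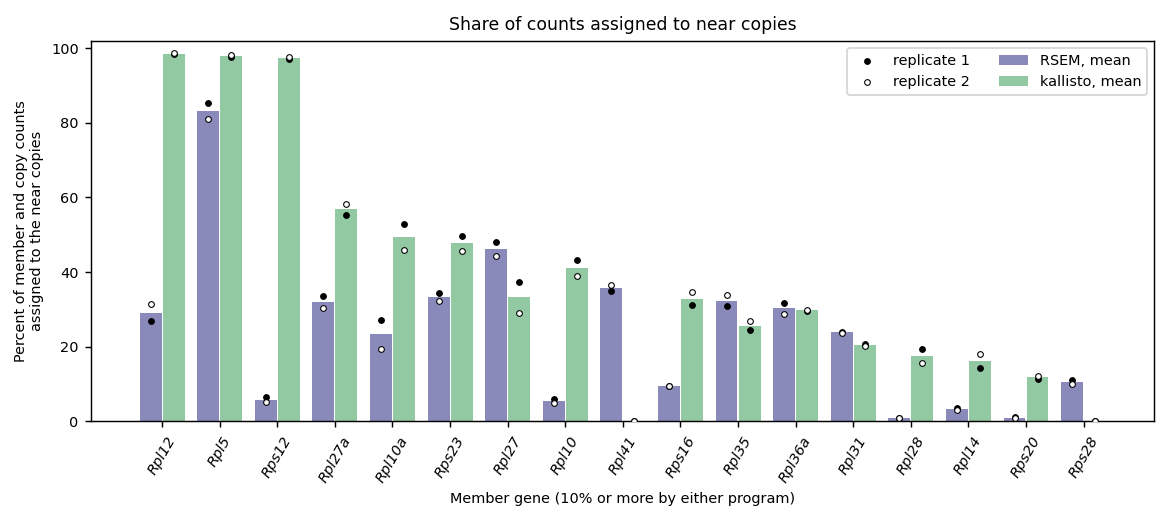
Percent of member and copy counts given to near copies, for the 17 members at 10% or more by either program, with RSEM bars left of kallisto bars, bars as means and points as replicates 1 (black) and 2 (white). Rps12 and Rpl12 stand at 5.81% and 29.1% by RSEM and at 97.4% and 98.6% by kallisto.

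Adding each member's near copies to it brought the programs together. The log2 ratio of RSEM over kallisto scaled counts then lay between -0.02 and 0.21 in replicate 1 and between -0.02 and 0.20 in replicate 2 for all 81 members. The mean of the replicates was within 0.2 of 0 for 80 members, against 67 without the copies. For Rps12 the ratio was 5.16 and 5.52 without and 0.14 and 0.13 with copies. For Rpl12 it was 5.55 and 5.92 without and 0.10 and 0.10 with copies, and for Rpl5 2.66 and 3.53 without and 0.09 and 0.10 with copies. The median over members was 0.11 without and 0.12 with copies. The log2 ratio of TPM had a median of 0.80 for the 6 members with an effective length under 150 bases and 0.49 for the other members, whereas the ratio of scaled counts had a median of 0.11 in both sets.

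**Figure D4:**
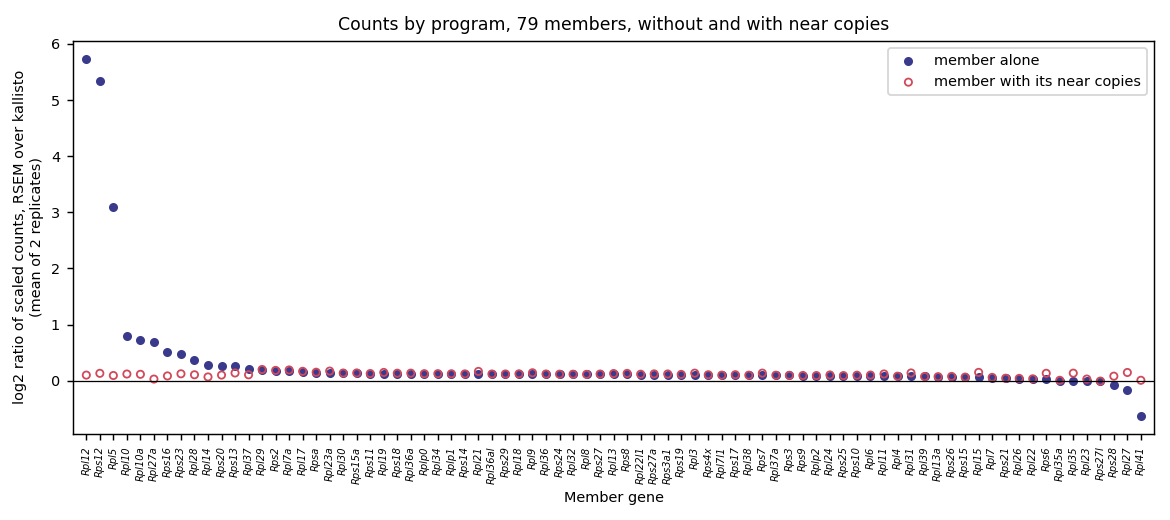
Log2 ratio of scaled counts, RSEM over kallisto, mean of 2 replicates, for 79 members in order, filled for the member alone and open with its near copies added. Rpl12, Rps12 and Rpl5 stand between 3 and 6 alone, and all members shown stand within 0.20 of 0 with copies.

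Most of the members' RNA was assigned to protein-coding transcripts. These held 95.8% and 95.7% of the members' TPM by RSEM in replicates 1 and 2, and 95.6% and 95.8% by kallisto, over 501 annotated transcripts of the members. Transcripts annotated as targets of nonsense-mediated decay held 2.64% and 2.72% by RSEM, and those with a retained intron 1.34% and 1.22%. By gene, 73 of 81 members had 90% or more in coding transcripts, 4 had 50% or more but under 90%, and 4 had under 50%. The leading transcript was the same by both programs for 76 of 81 members.

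Rps20, on chromosome 4, had the lowest share, 10.04% and 12.9% of its TPM. The retained-intron transcript Rps20-201, of 582 bases, held 89.0% and 86.1%, against 86.5% and 84.3% by kallisto. The coding transcript Rps20-203 is annotated with 3706 bases, and TPM divides by length. In counts it held 56.0% and 62.9% of the gene by RSEM, so the order of the transcripts differed between TPM and counts. For Rps16 the coding share was 15.5% and 16.9% of TPM and 36.5% and 38.3% of counts, with the retained-intron transcripts Rps16-203 and Rps16-202 holding most of the rest. Rpsa had a coding share of 32.0% and 36.9% of TPM and 48.9% and 54.4% of counts, and its decay-annotated transcript Rpsa-206 held 67.4% and 62.6% of TPM. Rpl5 had a coding share of 48.6% and 39.2% of TPM and 74.0% and 66.5% of counts, on the 1159 and 2892 counts that RSEM left to the gene.

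By RSEM TPM, Rpl13a had 63.8% and 67.7% in coding transcripts and Rpl35 71.3% and 69.8%. The non-coding transcript Rpl35-203 held 28.3% and 30.2% of Rpl35 by RSEM, but 11.6% and 2.36% by kallisto. Rps19, mutated in Diamond-Blackfan anaemia in humans, had 90.4% in replicate 1 and 71.8% in replicate 2 by RSEM, the widest gap between the libraries among the 8 members under 90%. Its decay-annotated transcript Rps19-205 held 9.56% and 28.2% by RSEM, but 7.45% and 15.7% by kallisto. None of the 11 other transcripts at 10% or more of a gene's RSEM TPM contains the whole coding sequence of the leading coding transcript. The division among transcripts is the programs' estimate from short fragments, with no interval in the files.

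**Figure D5:**
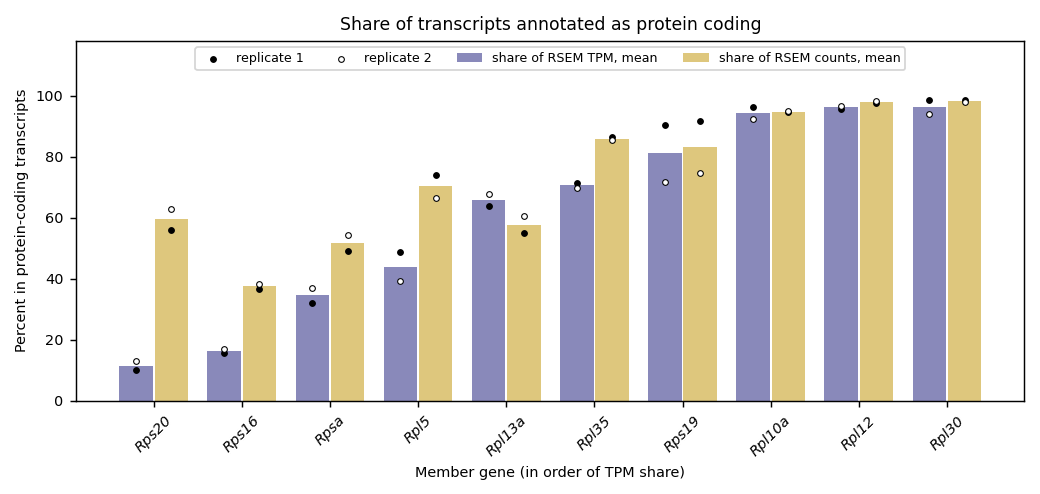
Percent in protein-coding transcripts for 10 members with a low share of TPM, by RSEM TPM (left bars) and RSEM counts (right bars), as means with points for replicates 1 (black) and 2 (white). Rps20 stands at 11.5% of TPM and 59.4% of counts.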

How the data were processed

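For each of the 2 libraries the authors deposited a gene table and a transcript table with the column names of RSEM, holding expected counts and TPM, per the file headers. The transcript table adds each isoform's percent of its gene, per the file headers. They also deposited a transcript table with the column names of kallisto, holding estimated counts and TPM, per the file headers. The deposited description gives assembly mm10 and GENCODE M21; program versions and strand are not given in the sources used here. Without strand, reads of overlapping antisense genes cannot be told apart.

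From these files, kallisto values were summed by gene. Expected counts were rounded for TMM factors and the common dispersion in edgeR 4.0.16 and size factors in DESeq2 1.42.0 (R 4.3.3); ratios used them unrounded. Entries outside mouse genes, 0.141% and 0.134% of counts, were left out. Near copies came from BLAST 2.17.0 of GENCODE M21 transcripts on the plus strand, with an e-value of at most 1e-10, and each copy went to its best match. TPM ratios had 1 TPM added, which understates ratios of low genes. Floors are 3 counts. Named are Rplp0, Rpsa, the paralog pairs and the highest, lowest and furthest members in each comparison; Rpl11, Rpl13, Rpl13a's and Rpl35's transcripts, Rps19, Rps20's place beside the 1.5-fold limit, Rps23, Rpl27a, Rps28 and the copies were named after their values were seen. Transcripts were counted at 10% or more of a gene, and effective lengths under 150 bases were called short. The members, lists and thresholds were chosen with earlier results of these data known. No comparison between conditions was made. Some genes chosen by these rules are not reported here.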

Additional observations from a re-analysis of the deposited data

How the results depend on the processing

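Of 84 alternatives over 17 results, 62 left the value within its tolerance (1 SD between the libraries, 0.1 on the log2 scale for the ratio of the libraries, 1.5 times for a count), 22 moved it and 0 reversed it. For means of the 2 libraries, leaving 1 out could not pass the 1 SD tolerance, so those alternatives were bound to stay within it. By kallisto the members held 4.57% of TPM against 6.85% by RSEM, and their median was 492 against 688 TPM. Pseudogenes were 726 genes without a protein-coding transcript, being near copies or genes named for a member with -ps and a number. Of the counts of pseudogenes and members together, pseudogenes held 6.26% by kallisto, against 4.99% by RSEM. The members held 8.07% of TPM without mitochondrial and rRNA genes and 1.78% of counts. The count of members 1.5-fold apart between the libraries was 5 on TPM + 1, against 8 on counts. On counts scaled to the library total the median ratio of RSEM over kallisto was 0.11, against 0.51 on TPM + 1, and 6 members were 1.5-fold apart, against 16. Left out in turn, replicates 1 and 2 gave 41 and 16 such members. With near copies added, an alternative chosen after seeing the data, the median was 0.12 and 0 members were apart. On the same joint scale, pseudogenes held 10.5% of RSEM TPM. Of joint RSEM counts they held 5.54% with copies that have a protein-coding transcript. By -ps names alone they held 1.73%, and both of these count alternatives were added later. Coding transcripts held 95.7% by kallisto and 95.8% of counts. By kallisto and by counts, Rpl7l1 held 9.89% and 18.3% of its pair, Rpl39l 0.269% and 0.259%, and Rps27l 9.06% and 15.1%. The cause of these shifts was not tested.

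Leaving out each replicate in turn kept the count of members at 1 TPM or more at 81 and gave 6.40% to 7.29% of TPM, a median of 644 to 731 TPM and a program ratio of 0.42 to 0.60. No paired analysis was possible because the libraries form 1 group. With 2 libraries, an SD has 1 degree of freedom, and no p-value was computed. Depth limits only Rpl10l, Rpl3l and Rpl39l, each under 20 counts. Between identical stretches of a gene and its copy, depth does not help.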
